A study of Arabidopsis thaliana with 7 samples.

Results

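In the deposited table of small RNA loci from Arabidopsis thaliana roots, 74 of 25025 loci carried the mark of the authors' locus caller for a microRNA gene, and these 74 are described here. All 74 were taken by that mark alone, with no further threshold on reads. No locus of the deposited table had under 90 reads. They held 7129146 of the 87277746 reads of the table, which is 8.17% of the reads in 0.296% of the loci. Each of the 74 overlapped an annotated microRNA gene of the RefSeq table for assembly TAIR10.1, and the loci are called by the name of that gene.

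MicroRNAs are short RNAs cut from hairpins in longer primary transcripts by the nuclease DCL1. One strand of the cut duplex is loaded into an Argonaute protein, in plants mostly AGO1, and guides cleavage or lower translation of messenger RNAs that pair with it. In roots they are best known for setting the levels of developmental transcription factors and for the responses to shortage of phosphate, sulfate, copper and nitrogen.

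Roots were taken from seedlings aged 14 d after 7 d on medium with 0 µM phosphate (low phosphate) or 500 µM phosphate (control). The small RNA table is filed under control roots. No low phosphate small RNA was analysed here, so that no microRNA locus could be compared between conditions. Poly(A) RNA, ribosome footprints (fragments protected by ribosomes, captured through a tagged ribosomal protein) and double-stranded RNA (dsRNA, the RNA left after a single-strand nuclease) had 2 bioreplicates in each condition. All plants for small RNA, poly(A) RNA and footprints carried the tagged protein under the 35S promoter, given as RPL18B in the growth text and as RPL8 in the line label, in the Col-0 background. The dsRNA line label is Col-0 alone. Control and low phosphate plants carried the same tag, so the comparisons below hold for tagged plants, except in dsRNA.

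The small RNA came from a gel slice of 18 to 28 nt. No source used here says which libraries the read totals sum, so each locus has a single value with no replicate, and comparisons between loci are descriptions with no test. The mark itself rests on strand, hairpin and precision of cutting, so that the strand and major RNA shares of the 74 loci are descriptions too. The column for uniquely placed reads was 0 at all 25025 loci. Reads of 20 nt made up 0.0281% of the table and the column for shorter reads was 0, so the data say nothing on RNAs below 21 nt. In poly(A) RNA of the same roots, the root markers SCR, SHR, PLT1, COBL9 and CASP1 ranged from 4.00 to 227 CPM (normalised counts scaled to library size). The green tissue markers RBCS1A, LHCB1.1 and CAB1 ranged from 11.4 to 180 CPM and were not absent. The part of green tissue in the values was not tested.

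The sequences below are the major RNAs, the single most abundant sequence of a locus as deposited, written 5′ to 3′. Capitals mark bases 2 to 8, the seed, with which a microRNA first pairs. They are shown because they hold most of the reads, differ by few bases within a family, depart from 21 nt, or belong to families of nutrient responses.

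MIR165a: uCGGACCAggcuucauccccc
MIR166d, MIR166f and MIR166g: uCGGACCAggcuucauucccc
MIR157b: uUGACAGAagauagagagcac
MIR156d: uUGACAGAagagagugagcac
MIR156a, MIR156c and MIR156f: uGACAGAAgagagugagcaca
MIR156e: gCUUACUCucucucugucacc
MIR158a: uCCCAAAUguagacaaagcau
MIR159b: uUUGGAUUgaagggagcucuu
MIR168a and MIR168b: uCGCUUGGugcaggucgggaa
MIR396a: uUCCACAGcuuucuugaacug
MIR173: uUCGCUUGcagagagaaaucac
MIR167a and MIR167b: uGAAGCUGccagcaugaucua
MIR167c: uAAGCUGCcagcaugaucuugu
MIR829: aGCUCUGAuaccaaaugauggaau
MIR5654: uAAAUCCCaacaucuuccacc
MIR399b: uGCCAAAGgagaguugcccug
MIR399a: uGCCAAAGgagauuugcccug
MIR399d: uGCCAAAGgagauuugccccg
MIR399f: gGGCAAGAucaccauuggcaga
MIR827: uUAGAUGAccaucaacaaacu
MIR2111a: gUCCUCGGgaugcggauuacc
MIR395b and MIR395c: cUGAAGUGuuuggggggacuc
MIR395a and MIR395e: cUGAAGUGuuugggggaacuc
MIR169d and MIR169g: gCAAGUUGaccuuggcucugu
MIR393a: aUCAUGCUaucucuuuggauu
MIR397b: uCAUUGAGugcaucguugaug

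The 74 loci lay on all 5 nuclear chromosomes, with 20 on chromosome 1, 12 on chromosome 2, 14 on chromosome 3, 8 on chromosome 4 and 20 on chromosome 5. Reads came from the plus strand at 40 loci and from the minus strand at 34. The loci were 61 to 277 nt long, with a median of 134 nt. The table's coordinates are those of TAIR10, and 99.6% of the 34505 deposited 5′ UTR regions lay inside the reference gene of the same name, which was used to check that both sources share coordinates. Of 326 annotated microRNA genes, 74 lay on these loci, 181 on other loci of the table and 71 on none. Whether the 71 had reads below the lowest count listed, 90, was not tested.

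Reads per locus ran from 103 to 1063701, with a median of 4525. Under 1000 reads were found at 20 loci, at least 1000 but under 10000 at 26, at least 10000 but under 100000 at 13, and at least 100000 at 15. The 10 deepest loci held 74.2% of the reads of the 74, and the shallower 37 loci held 0.613%. Most reads were therefore assigned to few loci. Several of these shared their major RNA with other loci, as described below, so the genes that made the reads are not known.

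**Figure D1:**
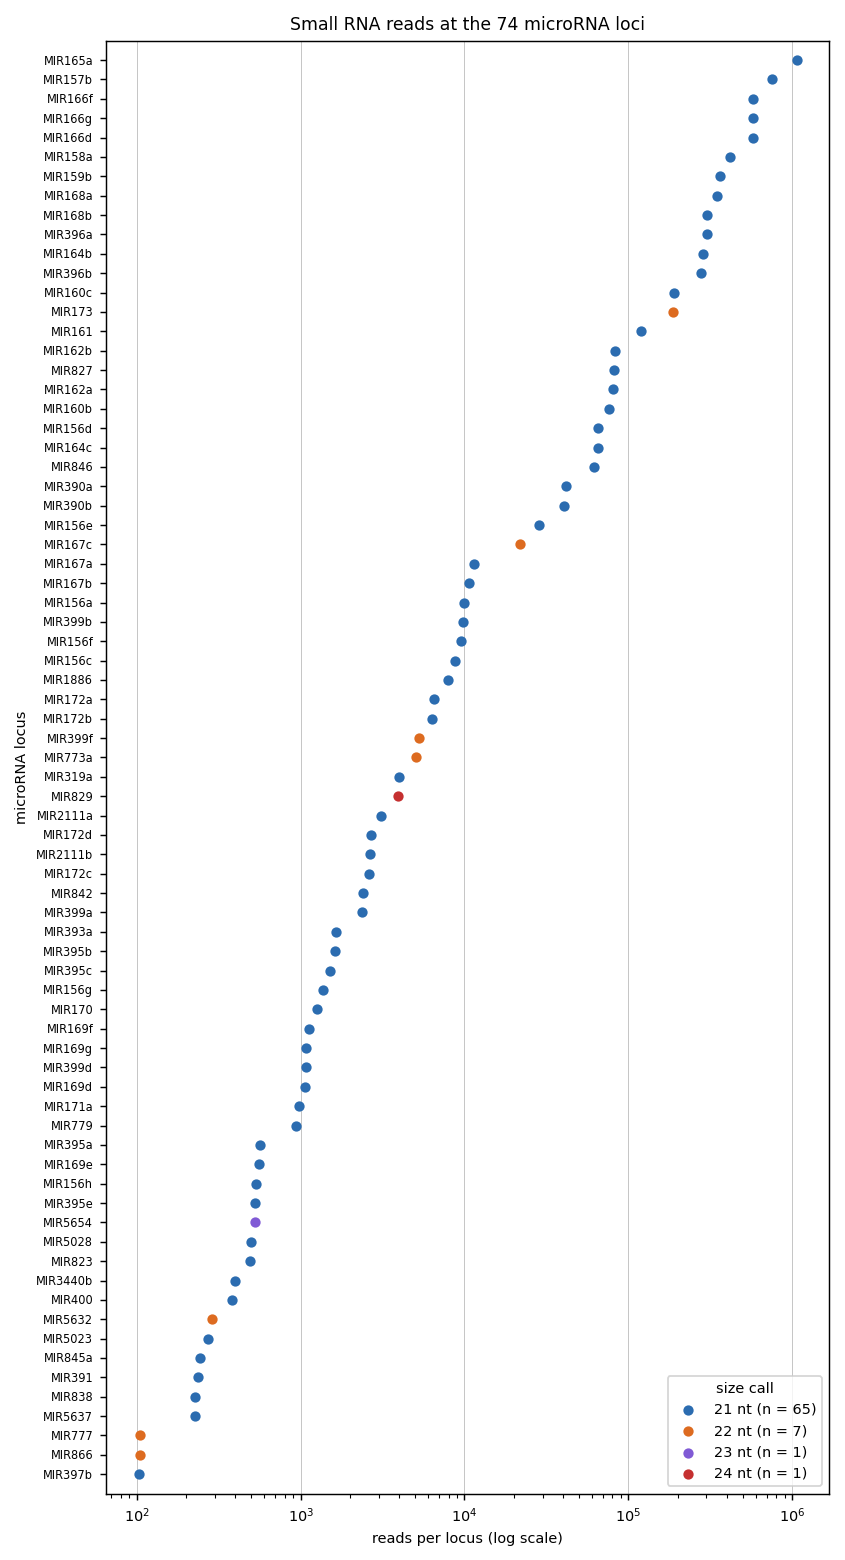
Reads per locus (log scale) for the 74 microRNA loci, from deepest at the top to shallowest at the bottom; colours give the size that the locus caller assigned. Reads run from 1063701 at MIR165a to 103 at MIR397b, and the 9 loci not called 21 nt lie between 105 reads (MIR777 and MIR866) and 188090 reads (MIR173).

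The miR165 and miR166 families target the class III homeodomain leucine zipper genes PHB, PHV, REV, HB-8 and ATHB-15, which pattern root vascular tissue. MIR165a (chr1:78897-79034, minus strand) was the deepest locus with 1063701 reads, of which 94.2% were its major RNA (95% Wilson interval 94.2% to 94.3%). MIR166d (chr5:2840630-2840738), MIR166f (chr5:17516310-17516405) and MIR166g (chr5:25504815-25504912) had 576103, 578654 and 577621 reads. Their common major RNA differed from that of MIR165a by C17U, counted from 1 at the 5′ end with the base of MIR165a first, and shared its seed. The 4 loci together had 2796079 reads.

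These near-equal counts are mostly of one sequence that led several loci. No source used here says how reads that match several loci were divided among them. The major RNA of MIR166d, MIR166f and MIR166g was counted 563732 to 565591 times at each of them. It was also listed at the unmarked MIR166a, MIR166b, MIR166c and MIR166e, and the 7 loci together were given 3954677 reads of it. Which of the 7 genes made these RNAs cannot be told apart. Of the 74 loci, 26 shared their major RNA with another of the 74, through 12 sequences, and the 74 loci held 60 distinct major RNAs and 47 distinct seeds. Within these groups the counts of the shared sequence differed by at most 8.94%, at MIR170 (963) and MIR171a (884).

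The miR156 and miR157 families target SPL transcription factors, which drive the change from juvenile to adult growth. MIR157b (chr1:24921095-24921200) had 751255 reads, 99.2% of them 21 nt. Its major RNA was counted 685769 times, and the unmarked MIR157a and MIR157c listed the same sequence at 685634 and 686212 counts. The 7 miR156 loci were the largest family by number but had 124345 reads in all, between 537 at MIR156h and 65610 at MIR156d. The major RNA of MIR156d started 1 base earlier than that of MIR156a, MIR156c and MIR156f, so that its seed was the one of MIR157b. MIR157b and MIR156d differed by U12G and A15U, and MIR157b and MIR156h by U12A. MIR156g differed from MIR156a by U1C and had 1366 reads. MIR156e had 28635 reads and was led by a sequence of another seed, known as the opposite arm of the miR156 hairpin. This and the other arm names below are background, since no mature sequence table was matched.

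Other deep loci belonged to families with targets in growth, defence and the silencing pathway itself. MIR158a (chr3:3366339-3366489) had 420490 reads. It was less uniform than the other deep loci, since 34.1% of its reads were the major RNA (95% interval 33.9% to 34.2%) and 67.8% were 21 nt, with 19.7% at 22 nt, 6.97% at 23 nt and 4.90% at 24 nt. MIR159b (chr1:6220600-6220876), whose family targets GAMYB-like transcription factors, had 364460 reads with 95.4% in the major RNA. MIR168a (chr4:10578548-10578804) and MIR168b (chr5:18358788-18358901), which target AGO1, had 350334 and 303904 reads. Their shared major RNA was counted 283908 and 283755 times, so that it made up 81.0% of MIR168a and 93.4% of MIR168b. MIR162a and MIR162b, which target DCL1, had 80919 and 82977 reads.

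MIR396a (chr2:4142305-4142559) and MIR396b (chr5:13611705-13611933), which target growth-regulating factors, had 300882 and 277491 reads, and their major RNAs differed by G21U. MIR164b and MIR164c, which target NAC genes, had 284890 and 64987 reads and differed by A21G. MIR160c and MIR160b, which target auxin response factors, had 188815 and 75753 reads, and the major RNA of MIR160c started 1 base earlier. MIR161 had 120216 reads, MIR390a and MIR390b had 41773 and 40766, and MIR846 had 62117. MIR390 is the trigger of TAS3 trans-acting siRNAs. The 4 miR172 loci, whose targets are AP2-like genes, had 2632 to 6481 reads, with U21G between MIR172a and MIR172c. MIR319a, whose family targets TCP genes, had 3970 reads.

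Among families of phosphate shortage, MIR827 (chr3:22122804-22122916) was the deepest, with 81987 reads in the table filed under control roots. Its RNA targets NLA, a ubiquitin ligase acting on phosphate transporters, and 80.8% of its reads were 21 nt and 15.8% were 22 nt. The 4 miR399 loci, which target the phosphate regulator PHO2, had 9735 reads at MIR399b, 5270 at MIR399f, 2383 at MIR399a and 1074 at MIR399d. The unmarked MIR399c had 10137 reads and the same major RNA as MIR399b, counted 9305 times there and 9251 times at MIR399b. Which of these genes made it cannot be told apart. The major RNAs of MIR399b and MIR399a differed by G13U, and those of MIR399a and MIR399d by U20C. MIR399f had another seed: its most abundant RNA was a 22 nt sequence from the arm opposite to the usual miR399, with 3644 of its 5270 reads. MIR2111a and MIR2111b had 3116 and 2648 reads and were also led by the opposite arm, with 84.1% and 88.1% of their reads. MIR399d and MIR399f lie 1931 nt apart on opposite strands.

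Families of sulfate, copper and nitrogen shortage follow. MIR395b, MIR395c, MIR395a and MIR395e, which target ATP sulfurylases and a sulfate transporter, had 1631, 1513, 565 and 526 reads. They fell into a pair with one major RNA and a pair with another, and MIR395b and MIR395a differed by G17A. The unmarked MIR395f listed the major RNA of MIR395b and MIR395c at 1473 counts. The unmarked MIR395d listed that of MIR395a and MIR395e at 418 counts. MIR395a, MIR395b and MIR395c are neighbours on chromosome 1, with gaps of 1198 and 2530 nt. MIR397b, a laccase regulator of copper shortage, was the shallowest locus with 103 reads, of which 61.2% were its major RNA (95% interval 51.5% to 70.0%). The miR398 and miR408 loci were in the table without the mark: MIR408 had 70693 reads, MIR398c 24787, MIR398b 24627 and MIR398a 1636. Unmarked loci of nutrient families in general also included MIR169b with 2395 reads, MIR169a with 2128, MIR397a with 783 and MIR778 with 233. The 4 marked miR169 loci, whose family targets NF-YA genes and responds to nitrogen, had 554 to 1118 reads. They were led by the opposite arm, and MIR169f differed from MIR169g by C21U and MIR169g from MIR169e by C11U. MIR393a, whose family targets auxin receptors, had 1644 reads and was led by the opposite arm with 83.3% of them.

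The size of a small RNA reflects the nuclease that cut it, DCL1 most often giving 21 nt. Over the 74 loci, 92.8% of the reads were 21 nt, 5.95% were 22 nt, 0.688% were 23 nt and 0.435% were 24 nt. The median locus had 93.2% of its reads at 21 nt, against 6.31% in the median of all 25025 loci. The microRNA loci held 29.9% of all 21 nt reads of the table and 10.1% of the reads of 20 to 24 nt. The locus caller assigned 21 nt to 65 loci, 22 nt to 7, 23 nt to 1 and 24 nt to 1.

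MIR173 (chr3:8236035-8236253) was the deepest locus called 22 nt. It had 188090 reads, of which 94.3% were 22 nt and 4.83% were 21 nt. The miR173 RNA starts the production of trans-acting siRNAs from TAS1 and TAS2 precursors, and 22 nt microRNAs are known for this activity. MIR773a had 5080 reads and 90.6% at 22 nt, and MIR399f had 71.0%. MIR167c was more mixed, with 49.4% at 22 nt, 26.2% at 21 nt and 21.2% at 23 nt in 21773 reads. It differed in this from MIR167a and MIR167b, which had 96.4% and 96.9% at 21 nt in 11499 and 10641 reads.

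The other 3 loci called 22 nt were shallow: MIR5632 had 288 reads with 65.6% at 22 nt, MIR777 had 105 reads with 85.7%, and MIR866 had 105 reads with 67.6%. MIR829 was the one locus called 24 nt, with 62.6% of 3958 reads at 24 nt and 26.5% at 21 nt. MIR5654 was called 23 nt on 52.5% of 524 reads, yet its major RNA was a 21 nt sequence with 233 reads, and 46.2% of its reads were 21 nt (95% interval 42.0% to 50.5%). The intervals cover counting error only.

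**Figure D2:**
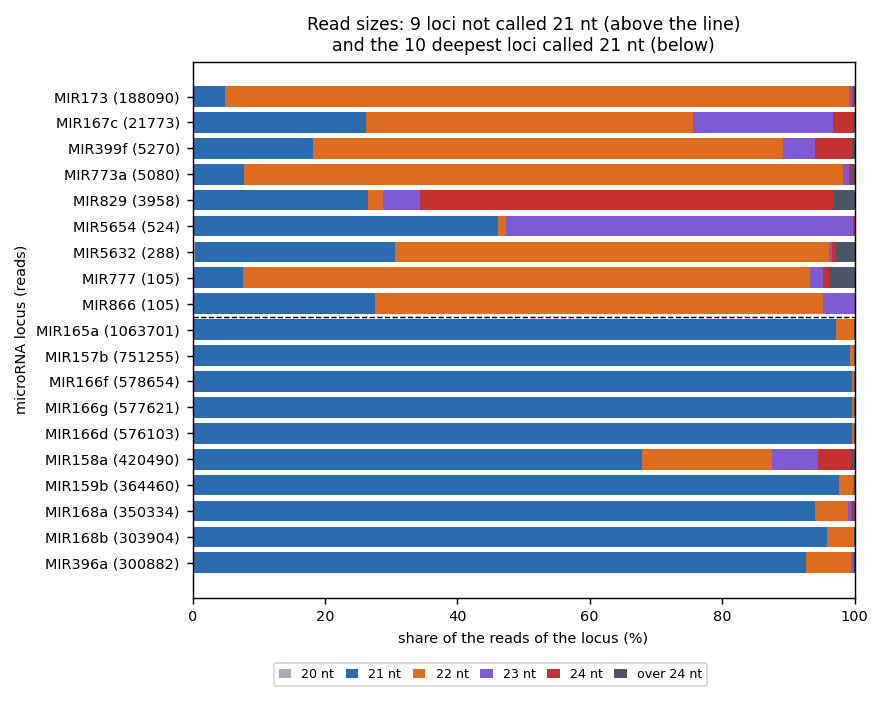
Share of reads of each size (%) at the 9 loci not called 21 nt, above the dashed line, and at the 10 deepest loci called 21 nt, below it; the read number stands in brackets. MIR173 is 94.3% 22 nt, MIR829 is 62.6% 24 nt, and MIR158a is 67.8% 21 nt where the other deep loci exceed 90%.

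Nearly all reads of a microRNA locus came from one strand. The share on the main strand was exactly 100% as deposited at 50 loci and at least 99% at 69. The lowest shares were 95.8% at MIR391, 96.9% at MIR842 and 98.0% at MIR3440b. The median was 100%, against 71.3% over all loci of the table. The phasing score, a measure of regular siRNA spacing, was not given for any of the 74.

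The major RNA held a median of 80.4% of the reads. It held over 50% at 64 loci and over 90% at 22. The highest shares were 97.9% at MIR166d, 97.8% at MIR166g and 97.7% at MIR166f. The lowest were 15.3% at MIR319a, 34.1% at MIR158a and 37.9% at MIR842. The widest 95% interval for a share spanned 18.5 percentage points, at MIR397b.

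For comparison, the median major RNA share was 47.7% at 80 unmarked 21 nt loci on a microRNA gene and 11.5% at 262 other 21 nt loci. Their median main strand shares were 99.8% and 72.8%, and their median locus lengths 195.5 and 739 nt. The 80 unmarked loci were given 8612157 reads, and the deepest was MIR159a with 1699257. At 13 of the 80 the major RNA was a sequence that also led a marked locus, among them MIR165b and MIR157a, and these listings made up 5034237 reads, or 58.5% of the reads of the 80. Since the division of such reads is not stated, reads of the 2 classes are not added or set against each other here as separate RNAs.

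**Figure D3:**
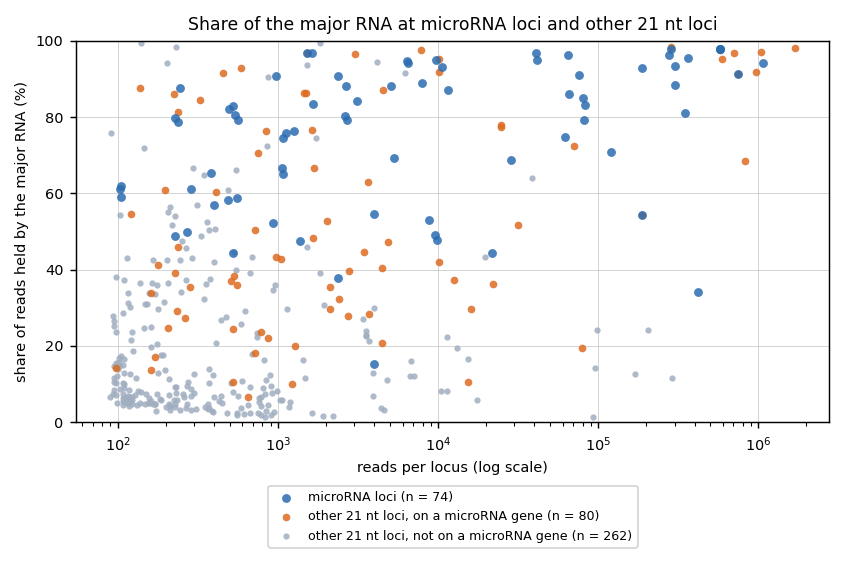
Share of the reads held by the major RNA (%) against reads per locus (log scale) for microRNA loci, unmarked 21 nt loci on a microRNA gene and other 21 nt loci. The microRNA loci have a median share of 80.4%, the 2 other classes 47.7% and 11.5%.

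The first base of a small RNA guides its choice of Argonaute, with uridine preferred by AGO1 and adenosine by AGO2 and the AGO4 group. Uridine led the major RNA at 49 of the 74 loci, adenosine at 12, guanosine at 7 and cytidine at 6. By reads, 96.2% of the major RNA reads started with uridine, against 82.0% over all loci of the table. The share by reads was 96.8% at unmarked 21 nt loci on a microRNA gene. At 24 nt loci 61.1% of the major RNA reads started with uridine and 34.8% with adenosine, unlike the shares of loci given below. The loci led by cytidine were the 4 miR395 loci, MIR156g and MIR845a. Uridine led 66.2% of microRNA loci, 61.3% of unmarked 21 nt loci on a microRNA gene, 56.9% of other 21 nt loci and 10.7% of the 17371 loci of 24 nt, of which 79.4% were led by adenosine.

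**Figure D4:**
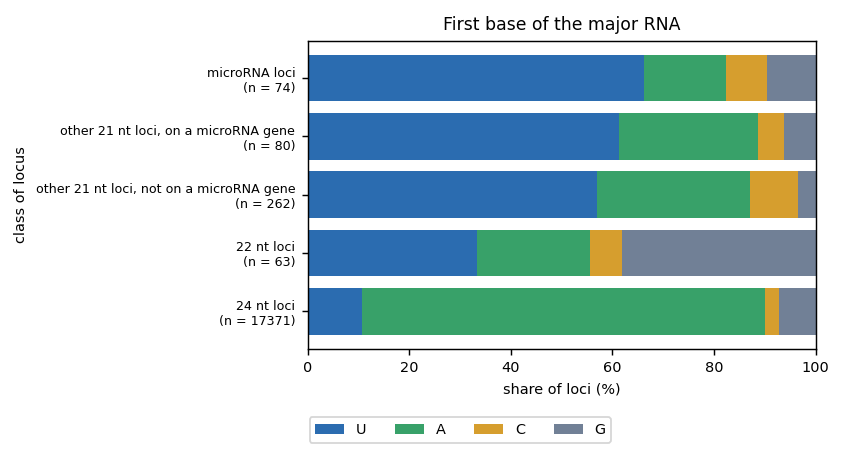
Share of loci (%) whose major RNA starts with U, A, C or G, for microRNA loci and 4 other classes of locus. U leads 66.2% of microRNA loci, and A leads 79.4% of 24 nt loci.

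Of the 45 families, 31 were represented by a single locus. The remaining loci were MIR1886 (7956 reads), MIR779 (938), MIR5028 (495), MIR823 (490), MIR400 (382), MIR5023 (271), MIR845a (243), MIR838 (227) and MIR5637 (227). Protein-coding genes overlapped 10 of the 74 loci, among them DCL1 at MIR838 and PRA8, a prenylated RAB acceptor gene, at MIR823. Overlap was taken from coordinates, and strands were not compared. MIR400 and MIR5654, 225 nt apart, both overlapped AT1G32583. MIR842 and MIR846 lie 196 nt apart on the plus strand, with 2387 and 62117 reads.

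Since the loci themselves could not be compared between conditions, the messenger RNAs that microRNAs are known to target were compared between low phosphate and control roots. The list held 89 coding targets and 6 trans-acting siRNA precursors. Library totals were 18262547 to 26746252 counts for poly(A) RNA, 7156329 to 12817826 for footprints and 2735264 to 8249514 for dsRNA. Changes are log2 low phosphate over control from edgeR's quasi-likelihood test, with SE and Benjamini-Hochberg adjusted p over all genes tested and a threshold of 0.05. In whole roots, fewer cells of a type and less RNA per cell cannot be told apart. No source used here gives the strand setting of the counts, and antisense or overlapping genes may share reads.

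In poly(A) RNA, 80 of the 89 targets were tested. None rose and 2 fell, PHO2 and NAC080. Of all 19866 genes 1.18% were called, 0.931% higher and 0.252% lower. At an unadjusted p under 0.05 there were 11 targets, and DESeq2 called 3, the third being APS4 (higher). The share of all genes at these settings was not computed, so these counts have no background beside them. The median change of the tested targets was -0.04, against 0.00 over all genes tested. PHO2, the ubiquitin-conjugating enzyme targeted by miR399, had 291 and 263 CPM in low phosphate and 544 and 507 CPM in control. Both low phosphate libraries were below both controls, and the change was -0.92 ± 0.15 (SE, edgeR adjusted p = 0.0182). NAC080, a NAC transcription factor targeted by miR164, had 21.2 and 17.2 CPM in low phosphate and 36.1 and 34.2 CPM in control, a change of -0.87 ± 0.16 (SE, edgeR adjusted p = 0.0343). Its groups did not overlap either. Both calls were lost when any one of the 4 libraries was left out, with edgeR adjusted p of 0.0748 to 0.173 for PHO2 and 0.0994 to 0.308 for NAC080. Both were also lost with the replicate number as a block (edgeR adjusted p = 0.0568 and 0.0708).

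The other targets of the phosphate and silencing families did not pass. NLA, the target of miR827, had 25.4 and 22.7 CPM in low phosphate and 38.8 and 34.7 CPM in control (-0.62 ± 0.17, SE, edgeR adjusted p = 0.208). AGO1 had 168 and 164 CPM in low phosphate and 213 and 206 CPM in control (-0.33 ± 0.14, SE, edgeR adjusted p = 0.535). For both genes the low phosphate libraries were below both controls. DCL1 had 46.4 and 30.3 CPM in low phosphate and 44.4 and 34.3 CPM in control, with overlapping groups.

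In footprints, 80 targets were tested, none rose and 1 fell. Of all genes 1.19% were called, 0.911% higher and 0.282% lower. At an unadjusted p under 0.05 there were 12 targets, and DESeq2 called 3, again with no share of all genes computed. NAC080 had 11.5 and 11.7 CPM in low phosphate and 23.5 and 21.6 CPM in control, a change of -0.96 ± 0.18 (SE, edgeR adjusted p = 0.0343). The call was lost without any one of the 4 footprint libraries (edgeR adjusted p of 0.0797 to 0.250) and with the replicate block (0.0774). PHO2 footprints were at 92.0 and 73.9 CPM in low phosphate and 113 and 124 CPM in control. The groups did not overlap, and the change of -0.51 ± 0.15 did not pass (SE, edgeR adjusted p = 0.223). NLA footprints were at 20.8 and 23.5 CPM in low phosphate and 28.2 and 37.4 CPM in control (-0.57 ± 0.18, SE, edgeR adjusted p = 0.266). AGO1 footprints were at 301 and 379 CPM in low phosphate and 412 and 417 CPM in control (-0.29 ± 0.14, SE, edgeR adjusted p = 0.491). DCL1 footprints were at 20.2 and 14.4 CPM in low phosphate and 15.5 and 14.9 CPM in control, with overlapping groups.

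The dsRNA reads of a gene are those that withstood the single-strand nuclease, from paired or folded RNA. Here 75 targets were tested, and 10 rose and 5 fell. Of all 17570 genes 15.7% were called, 10.2% higher and 5.57% lower. The median change of the targets was 0.07, against -0.02 over all genes. PHO2 had 214 and 184 CPM in low phosphate and 489 and 590 CPM in control, a change of -1.43 ± 0.23 (SE, edgeR adjusted p = 2.91e-08). NAC080 had 6.08 and 3.05 CPM in low phosphate and 21.1 and 19.6 CPM in control, a change of -2.08 ± 0.35 (SE, edgeR adjusted p = 7.33e-08). Both genes that fell in poly(A) RNA thus also fell in dsRNA. The dsRNA call of PHO2 was lost without control replicate 2 (-1.29, edgeR adjusted p = 0.0665), and that of NAC080 held without any one library. AGO1 dsRNA was at 247 and 203 CPM in low phosphate and 251 and 266 CPM in control, and did not pass (-0.20 ± 0.22, SE, edgeR adjusted p = 0.626). DCL1 and NLA did not pass either, with changes of -0.24 ± 0.22 and -0.23 ± 0.29 (edgeR adjusted p = 0.534 and 0.668).

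Of the 7 listed NF-YA transcription factors, targets of miR169, all 7 were tested in dsRNA and 3 rose. NF-YA1, NF-YA5, NF-YA8 and NF-YA9 did not pass, with changes of 0.61, 1.64, 0.45 and 0.79 and edgeR adjusted p of 0.163, 0.0504, 0.402 and 0.149. NF-YA2 had 143 and 149 CPM in low phosphate and 38.3 and 34.2 CPM in control, a change of 2.00 ± 0.23 (SE, edgeR adjusted p = 6.54e-16). NF-YA10 had 22.4 and 27.0 CPM in low phosphate and 7.71 and 6.54 CPM in control, a change of 1.75 ± 0.31. NF-YA3 had 33.7 and 30.5 CPM in low phosphate and 11.8 and 16.1 CPM in control, a change of 1.25 ± 0.27, which was lost without control replicate 1 (1.00, edgeR adjusted p = 0.283). PXMT1, a methyltransferase gene targeted by miR163, a family with no marked locus here, had 46.5 and 35.4 CPM in low phosphate and 4.58 and 6.84 CPM in control, a change of 2.93 ± 0.30. ARPN, the plantacyanin gene targeted by miR408, had 164 and 141 CPM in low phosphate and 31.0 and 32.4 CPM in control, a change of 2.27 ± 0.24.

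The list held 10 laccase and copper superoxide dismutase genes, of which 9 were tested in dsRNA, 4 rose and none fell. The laccases LAC13, LAC3 and LAC7 and the superoxide dismutase CSD1 rose by 0.95, 0.88, 0.66 and 0.78 on the log2 scale. LAC2, LAC4, LAC17, CSD2 and CCS, the copper chaperone, did not pass, with changes of 0.48, 0.60, 0.15, 0.12 and -0.60, and LAC12 was too low to test. Of the 4 miR395 targets, all tested, APS4 rose by 0.88, while SULTR2;1 fell by 1.07 and APS3 fell by 0.95. APS1 did not pass (-0.06). TOE2 fell by 0.79, as 1 of 5 tested miR172 targets. All 8 calls were lost without control replicate 1 and again without control replicate 2, and those of APS3 and TOE2 also without low phosphate replicate 1. Without the single control replicates the edgeR adjusted p of these genes ran from 0.0791 for SULTR2;1 to 0.673 for LAC7. APS4, higher in dsRNA, had 578 and 704 CPM of poly(A) RNA in low phosphate and 390 and 400 CPM in control (0.70 ± 0.16, SE, edgeR adjusted p = 0.0927). With the replicate block the calls of LAC7 (edgeR adjusted p = 0.0688) and TOE2 (0.0563) were lost. The TOE2 call was also lost with DESeq2 (adjusted p = 0.172), as was that of APS3 (0.0730).

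Genes overlapping the microRNA loci were tested in the same fits. The coding table also held MIR162a itself, as the one microRNA locus listed there. Of these 10 genes, 8 were tested in poly(A) RNA and in footprints, and none was called in either. Of all 19866 genes 1.18% were called in poly(A) RNA and 1.19% in footprints. At an unadjusted p under 0.05 there was 1 gene in each, and DESeq2 called 0. No share of all genes was computed for these 2 settings. In dsRNA 7 were tested, where 15.7% of all 17570 genes were called, 10.2% higher and 5.57% lower. Among the 7, PRA8, which overlaps MIR823, rose. It had 58.2 and 54.1 CPM in low phosphate and 23.7 and 31.5 CPM in control, a change of 1.05 ± 0.24 (SE, edgeR adjusted p = 2.20e-04). That call was lost without control replicate 1 (0.83, edgeR adjusted p = 0.436) or control replicate 2 (1.24, edgeR adjusted p = 0.0716).

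MIR162a had 2.56 and 2.58 CPM of poly(A) RNA in low phosphate and 2.92 and 2.58 CPM in control, a change of -0.10 ± 0.31. Its dsRNA was at 4.44 and 7.62 CPM in low phosphate and 7.49 and 4.46 CPM in control. A change in this precursor was not detectable at this depth.

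Trans-acting siRNA precursors, which miR173 and miR390 cut, were read from the noncoding table, where 5 of the 6 had values. In poly(A) RNA none was called by edgeR, by DESeq2, or at an unadjusted p under 0.05. Of 2050 transcripts 0.829% were called, 0.0976% higher and 0.732% lower. In footprints TAS1B, TAS1C and TAS2 fell and TAS1A and TAS3 did not pass. Of 611 transcripts 7.69% were called, 1.96% higher and 5.73% lower, and the median change of all was -0.42. TAS2 had 4.92 and 9.62 CPM in low phosphate and 32.1 and 15.2 CPM in control, a change of -1.71 ± 0.47 (SE, edgeR adjusted p = 0.00560). TAS1C had 8.97 and 15.9 CPM in low phosphate and 39.8 and 27.6 CPM in control, a change of -1.44 ± 0.48 (SE, edgeR adjusted p = 0.0359). TAS1B had 4.45 and 9.17 CPM in low phosphate and 23.5 and 12.7 CPM in control, a change of -1.42 ± 0.47 (SE, edgeR adjusted p = 0.0351).

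TAS1A was at 6.94 and 17.0 CPM in low phosphate and 26.8 and 22.7 CPM in control. TAS3 was at 11.1 and 10.6 CPM in low phosphate and 17.6 and 15.2 CPM in control. All 3 calls were lost without control replicate 1 (TAS2 -1.07, TAS1C -1.16, TAS1B -0.91), without low phosphate replicate 1 (TAS2 -1.30, TAS1C -1.08, TAS1B -0.98), and with the replicate number as a block. That of TAS1C was also lost without low phosphate replicate 2 (-1.91). TAS2 and TAS1C were called by DESeq2 and TAS1B was not (adjusted p = 0.119). TAS1B and TAS1C were lost with TMM scaling within the noncoding table (edgeR adjusted p = 0.135 and 0.0685) and with no low-count filter (0.135 and 0.108), while TAS2 was called under both. The TAS1 and TAS2 transcripts are near-identical in parts and may share reads. The poly(A) totals of the noncoding table were 297704 and 228554 in low phosphate and 293126 and 333517 in control. They did not follow the coding totals of the same-named columns, and whether both tables hold the same libraries under a name was not tested.

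**Figure D5:**
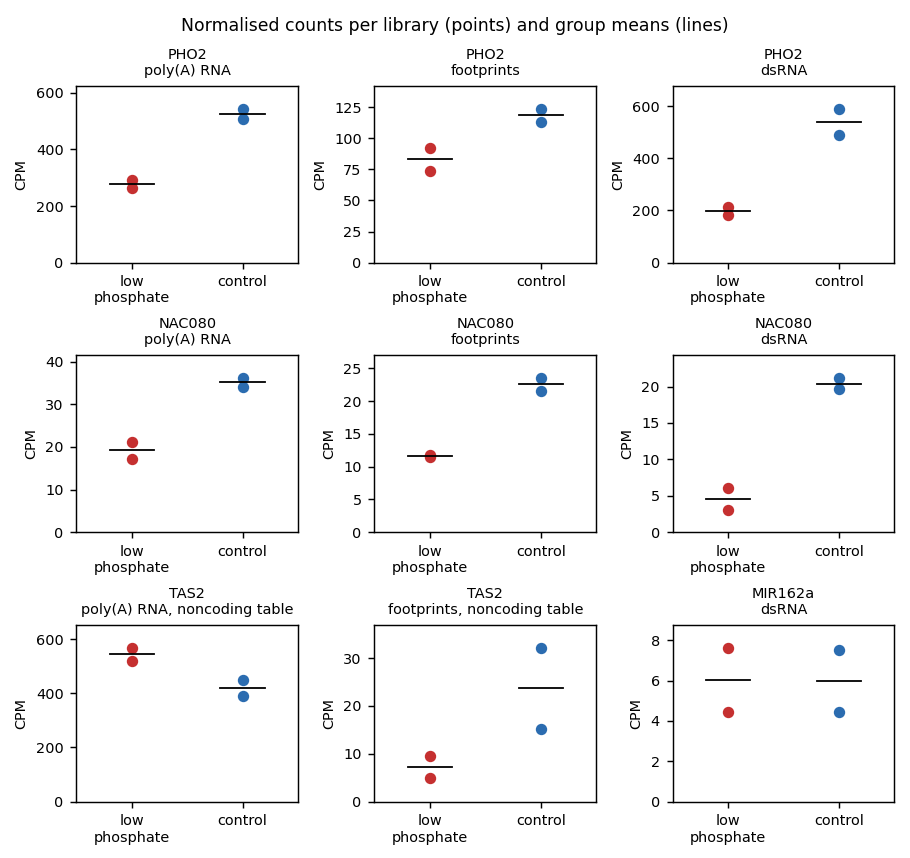
Normalised counts (CPM) per library for PHO2 and NAC080 in poly(A) RNA, footprints and dsRNA, for TAS2 in poly(A) RNA and footprints, and for MIR162a in dsRNA; points are single libraries and lines are means of 2. PHO2 and NAC080 are lower in both low phosphate libraries in all 3 assays, and the groups of MIR162a overlap.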

How the data were processed

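The deposited small RNA table gives read counts per locus and size, and, per the file headers, a top-strand fraction and a score of phasing; the deposited fraction was read as deposited and the deposited score was empty for all 74 loci. The deposited coding, dsRNA and noncoding tables hold raw counts by the authors. The deposited UTR tables hold RPKM by the authors, of which only the region names were read. CASAVA 1.8, TopHat 1.3.1 and Bowtie2 2.2.9 and the build TAIR10 are named per the submitters' processing notes. No source used here gives the settings of the locus caller.

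Loci were named by overlap with RefSeq TAIR10.1 genes, since no mature sequence table was used here; sequences are the deposited major RNAs. The tests on counts were run in edgeR 4.0.16 under R 4.3.3, with TMM scaling and the default expression filter: coding tables in 1 fit of 8 libraries, dsRNA in a fit of 4. Noncoding footprints used coding library sizes and noncoding poly(A) counts their own totals, because noncoding poly(A) totals do not follow the coding totals of the same-named columns. The replicates are separate bioreplicates only by the design text, and the p-values rest on the variation between these libraries. In the coding fit that variation was estimated over poly(A) and footprint libraries together. The tests of coding poly(A) RNA, dsRNA and noncoding transcripts were tested on simulated data, and that of coding footprints, which comes from the same fit as coding poly(A) RNA, was not. Alternatives were DESeq2 1.42.0, other scaling, no low-count filter, the replicate block and leaving out each library; uniquely placed reads could not be used because the column was 0 throughout. Tables and figures used Python 3.11.15, pandas 2.3.3, SciPy 1.17.1 and matplotlib 3.10.9.

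The loci and lists were chosen with earlier results of these data known. The text names the 10 deepest loci, those not called 21 nt, nutrient families, the 3 highest and lowest shares, called targets, and always PHO2, NLA, AGO1 and DCL1. The 95% intervals are Wilson intervals and cover counting error only.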

Additional observations from a re-analysis of the deposited data

Results flagged for a closer look

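For 4 genes, both low phosphate libraries lay beyond both controls one way in one assay and the other way in another. These differences between assays were not tested. Only called genes, the genes always named, genes overlapping a locus and TAS precursors were searched. Groups that do not overlap were common with 2 libraries each. Of the 89 targets, 21 lay above and 23 below both controls in poly(A) RNA, 11 and 22 in footprints, and 24 and 19 in dsRNA. These counts include targets too low to test, since 80 were tested in poly(A) RNA, 80 in footprints and 75 in dsRNA. The share over all genes was not computed, so the counts have no background beside them. TAS1C had 645 and 494 CPM in low phosphate and 464 and 435 CPM in control in poly(A) RNA (log2 change 0.34), against a change of -1.44 in footprints. TAS2 had 568 and 521 CPM in low phosphate and 389 and 450 CPM in control in poly(A) RNA (0.38), against -1.71 in footprints. TAS3 had 1297 and 1396 CPM in low phosphate and 1047 and 1202 CPM in control in poly(A) RNA (0.26), against -0.59 in footprints. APS3 had 17.3 and 17.0 CPM in low phosphate and 16.3 and 14.1 CPM in control in footprints (0.17), against -0.95 in dsRNA. The poly(A) changes of the TAS transcripts and the footprint changes of TAS3 and APS3 did not pass edgeR's test. The poly(A) and footprint columns of the noncoding table were scaled by different totals.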

How the results depend on the processing

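All 74 loci have over 100 reads, so a minimum of 100 reads removed none and tests nothing. The median 21 nt share was 93.3% among reads of 20 to 24 nt and 93.2% among all reads, and 65 loci were 21 nt by most frequent size as well. The share of the 10 deepest loci was 77.4% for major RNA reads only and 84.7% with loci of the same major RNA counted as 1, both chosen after seeing the data. Called targets in poly(A) RNA ranged from 0 to 0 when any library was left out, and in footprints likewise from 0 to 0; in dsRNA they ranged from 6 to 26. No share of all genes called was computed for the leave-outs or the other alternative settings. In these counts a shift of the targets therefore cannot be told apart from a shift of all genes. Footprints gave 3 called targets with DESeq2 and 2 with no low-count filter. Called TAS precursors in footprints were 1 with TMM within the noncoding table and 1 with no low-count filter, and 0 to 3 when a library was left out. With the replicate block, called targets were 0 in poly(A) RNA and 0 in footprints, TAS precursors in footprints were 0, and dsRNA targets were 13 of 15. The replicate numbers share no stated origin. The difference between replicates in low phosphate was set against that in control, as a correlation across the genes tested. The correlations were 0.134, -0.0333 and -0.0203 in poly(A) RNA, footprints and dsRNA. DCL1, not called, changed sign when libraries were left out (poly(A) -0.39 to 0.23, footprints -0.073 to 0.41), as did NLA in dsRNA (-0.64 to 0.20). The cause of these shifts was not tested. Small RNA reads have no replicate, and shares at loci of about 100 reads are imprecise.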
